A study of Mus musculus with 35 samples.

Results

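The genes of de novo fatty acid synthesis were followed in whole kidneys of diabetic and control mice. The set holds 10 genes: Srebf1, Acly, Me1, Acaca, Acacb, Fasn, Elovl6, Scd1, Scd2 and Thrsp. They were taken by name from the pathway, and their values come from every Affymetrix probe set annotated to them alone, out of 18193 genes with such a probe set. The 10 genes have 25 probe sets, and each gene is represented by its brightest. All 10 were bright enough to be tested among 13004 genes.

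The study is a microarray survey of kidneys from the OVE26 diabetic mouse at 3 ages. Mice of 2 months gave 6 diabetic and 6 control arrays, those of 4 months gave 7 diabetic and 4 control arrays, and those of 8 months gave 6 and 6. All are whole kidney of the FVB/NJ strain. As background, OVE26 mice carry a calmodulin transgene driven by an insulin promoter in pancreatic beta cells and lack insulin from early in life. The labels call the other mice control and give neither a transgene nor a sex for any group. They also do not say that each array is a separate animal, so p-values measure the spread between these arrays, part of which may be technical. In whole-kidney RNA, fewer cells of a type and less RNA per cell cannot be told apart.

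Fatty acid synthesis turns surplus citrate into fat in the cytosol. Citrate is cleaved to acetyl-CoA, acetyl-CoA is carboxylated to malonyl-CoA, and fatty acid synthase joins these units into palmitate with NADPH as the reductant, after which an elongase and desaturases make longer and monounsaturated chains. In liver and fat, insulin and feeding raise these genes through SREBP-1c, the product of Srebf1. The kidney makes less fat than the liver, and the perirenal fat that lies against it expresses the same genes.

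Promoter windows are shown for 3 of the genes, the regulator Srebf1, the synthase Fasn and the insulin- and thyroid-responsive gene Thrsp, because several results below turn on them. Each window is the 250 bases before a RefSeq transcript start on GRCm38.p6, read 5′ to 3′ on the gene's strand. Capitals mark CCAAT or its reverse complement ATTGG, the letters bound by NF-Y, and GGGCGG or its reverse complement CCGCCC, the letters of an Sp1 site. Srebf1 has windows at other transcript starts, each with CCAAT or GGGCGG but not both, and only the window with both is printed.
Srebf1, chr11:60210472-60210721, minus strand: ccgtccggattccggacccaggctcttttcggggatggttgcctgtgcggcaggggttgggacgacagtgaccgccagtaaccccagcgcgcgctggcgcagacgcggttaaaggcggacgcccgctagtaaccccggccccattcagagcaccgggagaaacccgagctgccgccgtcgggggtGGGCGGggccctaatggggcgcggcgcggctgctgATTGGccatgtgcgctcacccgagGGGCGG
Fasn, chr11:120824548-120824797, minus strand: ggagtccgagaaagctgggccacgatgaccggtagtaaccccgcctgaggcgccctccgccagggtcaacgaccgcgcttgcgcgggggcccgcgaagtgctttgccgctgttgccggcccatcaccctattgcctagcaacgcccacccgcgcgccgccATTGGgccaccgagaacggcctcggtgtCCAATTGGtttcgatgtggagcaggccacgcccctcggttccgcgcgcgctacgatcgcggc
Thrsp, chr7:97417551-97417800, minus strand: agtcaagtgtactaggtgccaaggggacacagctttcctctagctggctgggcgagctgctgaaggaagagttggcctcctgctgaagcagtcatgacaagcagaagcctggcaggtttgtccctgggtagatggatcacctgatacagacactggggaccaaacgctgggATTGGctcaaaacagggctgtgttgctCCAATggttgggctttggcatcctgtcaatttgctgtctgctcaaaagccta

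RefSeq's promoter table holds 11 windows for 8 of the 10 genes, searched on both strands. CCAAT was found in 6 windows, of 5 genes, against 33.8% of all 32851 windows. Fasn has 3 matches, of which the last 2 overlap, and Thrsp has 2. GGGCGG was found in 4 windows, of 3 genes, against 32.7% of all windows. The sterol response element was searched as TCACNCCAC, present in 1.05% of all windows, and the E-box as CACGTG, present in 6.02%, and both were found in 0 of the 11. A match describes letters only, and no binding was measured.

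Some of the fatty acid synthesis genes were lower in diabetic kidneys at 4 and 8 months. At 4 months Scd1, Fasn and Acaca fell, and at 8 months Scd1, Fasn, Acaca, Elovl6, Srebf1 and Thrsp fell. Acly, Me1, Acacb and Scd2 passed at no age in the fit of all arrays. Differences are log2 values, diabetic minus control, ± the standard error, and a gene fell or rose where its p from limma, adjusted over all 13004 genes by Benjamini and Hochberg, was under 0.05. By that rule 0 of the 10 genes fell at 2 months, against 1.78% of all genes. Without adjustment 3 had a p under 0.05. The labels state no pairing, but same-numbered diabetic and control arrays of this age deviated together from their group means. A fit blocked on these numbers gave 2 of the 10 lower, Scd1 and Elovl6, and 553 of all 13004 genes changed in either direction. At 4 months 3 of 10 fell, against 0.554% of all genes, and at 8 months 6 of 10, against 6.95%. None of the 10 rose at any age. The genes were chosen with the 4-month calls of Scd1, Fasn and Acaca known, so these counts are not independent support. At 2, 4 and 8 months the median difference over the 10 genes was -0.22, -0.61 and -0.49, while the median over all genes was -0.01, 0.01 and -0.00. At 2 months 6 of the 10 differences were negative, as were 54.2% of all genes. At 4 and 8 months all 10 were, against 46.5% and 50.1% of all genes.

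**Figure D1:**
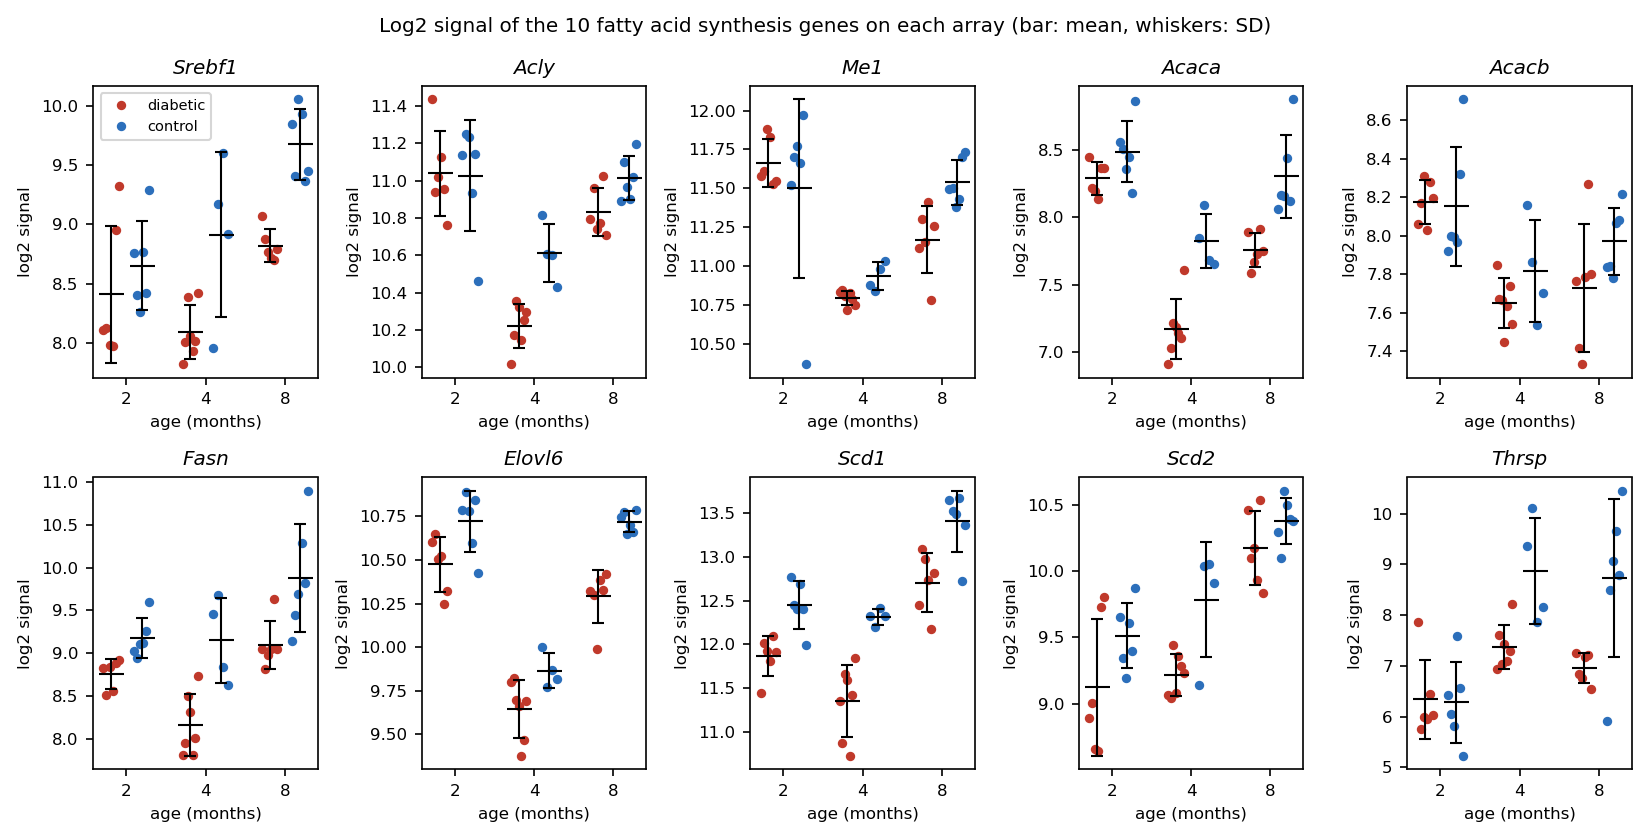
Log2 signal (vertical axis) of each of the 10 genes on every array, by age in months (horizontal axis), with diabetic arrays in red left of control arrays in blue. Horizontal bars are group means and whiskers are SDs. At 8 months the diabetic arrays of Srebf1, Acaca and Elovl6 all lie below the control arrays.

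All differences were taken within an age, since the arrays of the ages may have been scaled apart. The tissue check held on every array: the 12 proximal tubule markers averaged between 11.26 and 12.40 log2 and the 8 distal nephron markers between 10.77 and 11.30, against a threshold of 5.27 for a gene to be tested. At 8 months other cell groups moved as well. Of the 12 proximal tubule markers 7 fell, 8 of 9 leukocyte markers rose, and 6 of 6 tubular injury markers rose. Of all genes, 16.8% changed in either direction at that age. The leukocyte markers averaged 8.09 to 9.72 log2 on diabetic arrays, against 7.37 to 7.79 on control arrays. The part of these shifts in the values below was not tested.

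Some arrays stood apart. At 2 months arrays 5 and 6 of both groups lay apart from most others along the leading principal component (42.8% of the variance). For control array 6 the 3′/5′ log2 ratio of the beta-actin probe sets was 2.56, against 0.81 to 1.35 on the other 11. At 4 months control arrays 3 and 4 had Arntl, a clock gene, at 7.84 and 8.17, against at most 6.21 on the other 9. At 8 months diabetic arrays 1, 2 and 5 had Dbp, another clock gene, at 8.25, 8.14 and 7.32, against 9.48 to 10.88 on the others. Diabetic array 3 of 8 months lay farthest out along the leading principal component of that age (48.4% of the variance). No pair of arrays held identical values.

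Srebf1 encodes the transcription factors SREBP-1a and SREBP-1c, and SREBP-1c drives lipogenic genes. At 8 months it ran from 8.70 through a median of 8.78 to 9.07 on the 6 diabetic arrays, against 9.37 through 9.65 to 10.06 on the 6 control arrays. Every diabetic array was below every control array. The difference was -0.86 ± 0.22, or 1.81-fold lower (adjusted p = 0.00526).

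At 4 months Srebf1 ran from 7.82 through 8.01 to 8.42 on the 7 diabetic arrays, against 7.95, 9.17, 9.60 and 8.92 on the control arrays. Control array 1 lay among the diabetic arrays and the other 3 lay above all of them. The difference of -0.82 ± 0.24 missed the threshold (adjusted p = 0.0938), and it moved with single control arrays. Without control array 1 it was -1.14 ± 0.23 (adjusted p = 0.0073), without control array 3 it was -0.59 ± 0.25 (adjusted p = 0.495), and without control arrays 3 and 4 together it was -0.47 ± 0.29. With the clock covariate it was -0.56 ± 0.24 (adjusted p = 0.295). At 2 months the groups overlapped, with means of 8.41 ± 0.58 on diabetic and 8.65 ± 0.38 on control arrays (SD, n = 6 each; difference -0.24 ± 0.22, adjusted p = 0.661). Diabetic arrays 5 and 6, at 8.95 and 9.32, were the highest of their group, and control array 6, at 9.29, was the highest of its own.

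Acly, ATP citrate lyase, supplies the acetyl-CoA. At 4 months it ran from 10.02 through 10.25 to 10.35 on diabetic arrays, against 10.81, 10.61, 10.60 and 10.43 on control arrays. Every diabetic array lay below the control arrays, yet the difference of -0.39 ± 0.11 had an adjusted p of 0.104 in the fit of all ages. A fit of the 4-month arrays alone put it at 0.0232. At 2 months the difference was 0.01 ± 0.11, and at 8 months it was -0.18 ± 0.11 with overlapping groups (adjusted p = 0.271). The other Acly probe sets bright enough to test gave -0.24 ± 0.11 and 0.30 ± 0.20 at 2 months. At 4 months they gave -0.41 ± 0.12 and -0.42 ± 0.22, with every diabetic array below the control arrays in both. Neither passed at 4 months in the test over probe sets (adjusted p = 0.124 and 0.574).

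Me1, the cytosolic malic enzyme, makes NADPH for the synthase. Its differences at the 3 ages were 0.16 ± 0.15, -0.14 ± 0.16 and -0.37 ± 0.15, and none of these passed (adjusted p = 0.0875 at 8 months). At 8 months Me1 ran from 10.79 through 11.21 to 11.41 on diabetic arrays, against 11.38 through 11.50 to 11.73 on control arrays. Only diabetic array 4 reached the control range. The other, dimmer Me1 probe set was lower at 8 months by the test over probe sets (-0.35 ± 0.09, adjusted p = 0.005), and with the beta-actin 3′/5′ ratio as a covariate the brighter one also passed (-0.45 ± 0.11, adjusted p = 0.00223). Within groups Me1 moved against that ratio, with a slope of -0.74 ± 0.12 log2 per log2 (adjusted p = 5.5e-05), as did Acly with -0.36 ± 0.11 (adjusted p = 0.0183). Of all genes, 21.3% had a slope that passed. Control array 6 of 2 months had the highest ratio of its group (2.56) and the lowest Me1 (10.37) and Acly (10.46). Neither the slopes nor the fit with the ratio as a covariate was repeated without that array.

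Acaca encodes acetyl-CoA carboxylase 1, the enzyme that commits carbon to fatty acid synthesis. At 4 months it ran from 6.91 through 7.14 to 7.61 on diabetic arrays, against 7.85, 8.09, 7.69 and 7.66 on control arrays. At 8 months it ran from 7.59 through 7.74 to 7.91, against 8.06 through 8.16 to 8.88. At both ages the groups were fully separate, with diabetic arrays below. Acaca fell by 0.65 ± 0.13 at 4 months, 1.57-fold (adjusted p = 0.00612), and by 0.55 ± 0.12 at 8 months, 1.46-fold (adjusted p = 0.00113). At 2 months the difference was -0.20 ± 0.12 (adjusted p = 0.445).

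Acacb encodes acetyl-CoA carboxylase 2, which sits at the mitochondrion, where its malonyl-CoA restrains fatty acid oxidation. It gave differences of 0.02 ± 0.13, -0.17 ± 0.14 and -0.24 ± 0.13 at 2, 4 and 8 months, with overlapping groups at each age. None passed, and the 95% interval at 8 months ran from -0.50 to 0.02. Whether the carboxylases differ from each other was not tested.

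Fasn, the fatty acid synthase, makes palmitate. At 4 months it ran from 7.81 through 8.00 to 8.73 on diabetic arrays, against 9.46, 9.68, 8.83 and 8.63 on control arrays. Only diabetic array 7, at 8.73, exceeded a control array. Fasn fell by 0.99 ± 0.23, or 1.99-fold (adjusted p = 0.0203). The call rests on single arrays: the adjusted p was 0.0534 when diabetic array 5 was left out, 0.0846 when control array 1 was and 0.121 when control array 2 was. With the clock covariate Fasn gave -0.86 ± 0.25 and also missed the threshold (adjusted p = 0.0848).

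At 8 months Fasn ran from 8.81 through 9.05 to 9.63 on diabetic arrays, against 9.14 through 9.76 to 10.90 on control arrays. Diabetic array 5 alone reached into the control range. Fasn fell by 0.79 ± 0.21, or 1.73-fold (adjusted p = 0.00734). At 2 months it ran from 8.51 through 8.83 to 8.92 on diabetic arrays, against 8.94 through 9.11 to 9.60 on control arrays. It was the only one of the 10 genes whose diabetic arrays all lay below the control arrays at 2 months, where 0.961% of all genes did so, but the difference of -0.42 ± 0.21 missed the threshold (adjusted p = 0.337). The matching counts at the later ages were 3 of 10 at 4 months (Scd1, Acaca and Acly), against 2.44% of all genes, and 3 of 10 at 8 months (Acaca, Elovl6 and Srebf1), against 4.28%.

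Elovl6 elongates palmitate to stearate. At 8 months it ran from 9.99 through 10.33 to 10.42 on diabetic arrays, against 10.65 through 10.72 to 10.79 on control arrays. The groups were separate and the 6 control arrays lay close together. Elovl6 fell by 0.43 ± 0.08, or 1.35-fold, and had the smallest adjusted p of the 10 genes at that age (0.000389). It gave -0.25 ± 0.08 at 2 months (adjusted p = 0.118) and -0.22 ± 0.09 at 4 months (adjusted p = 0.338). At 8 months its other probe sets gave -0.34 ± 0.12 (adjusted p = 0.0503) and, for the dimmest, 0.27 ± 0.16 (adjusted p = 0.291). The mean of the 3 gave -0.17 ± 0.08 and did not pass (adjusted p = 0.172).

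Scd1, a stearoyl-CoA desaturase, makes oleate. At 2 months it ran from 11.45 through 11.92 to 12.09 on diabetic arrays, against a median of 12.43 and a highest value of 12.77 on control arrays. Control array 6, the array with the high beta-actin ratio, lay among the diabetic arrays, and the 5 other control arrays lay above all of them. The difference was -0.58 ± 0.17 (adjusted p = 0.0605), and without that array it was -0.67 ± 0.17 (adjusted p = 0.0236). With diabetic array 2 left out instead it was -0.61 ± 0.18, just under the threshold. Elovl6 at 2 months also passed when control array 6 was left out (-0.31 ± 0.08, adjusted p = 0.0292). With the replicate number within each age as a block, Scd1 at 2 months gave -0.58 ± 0.13 (adjusted p = 0.0214) and Elovl6 -0.25 ± 0.07 (adjusted p = 0.0445).

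At 4 months Scd1 ran from 10.73 through 11.42 to 11.85 on diabetic arrays, against 12.33, 12.20, 12.42 and 12.32 on control arrays. The groups were separate. Scd1 fell by 0.96 ± 0.19, or 1.95-fold (adjusted p = 0.00544). At 8 months it ran from 12.17 through 12.78 to 13.09 on diabetic arrays, against 12.72 through 13.50 to 13.67 on control arrays, where only control array 5 lay among the diabetic arrays. It fell by 0.70 ± 0.17, or 1.62-fold (adjusted p = 0.00384). The other Scd1 probe set gave -0.83 ± 0.31, -1.12 ± 0.33 and -1.20 ± 0.31 at the 3 ages and passed at 8 months (adjusted p = 0.00735).

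Scd2 is another desaturase of the family. Its differences were -0.39 ± 0.17, -0.57 ± 0.19 and -0.21 ± 0.17 at 2, 4 and 8 months, and none passed (adjusted p = 0.262, 0.166 and 0.475). At 2 months it was 9.73 and 9.81 on diabetic arrays 5 and 6, against 8.64 to 9.01 on diabetic arrays 1 to 4, and 9.20 to 9.87 on control arrays. With arrays 5 and 6 of both groups left out, Scd2 differed by -0.65 ± 0.16 (adjusted p = 0.0269). The other Scd2 probe sets gave 0.02 ± 0.23 and 0.34 ± 0.29 at 2 months.

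Thrsp, also called Spot 14, is a small nuclear and cytosolic protein that is induced with the lipogenic enzymes in liver and fat. At 8 months it ran from 6.54 through 7.00 to 7.25 on diabetic arrays, against 5.90, 8.49, 9.07, 9.66, 8.80 and 10.45 on control arrays. Control array 1 was the lowest of all 12, and the other 5 control arrays lay above every diabetic array. Thrsp fell by 1.77 ± 0.48, or 3.41-fold (adjusted p = 0.00853), the largest fold of the 10. The fit takes a common spread for all groups, whereas the SD was 0.29 on diabetic and 1.55 on control arrays.

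At 4 months Thrsp ran from 6.95 through 7.29 to 8.21 on diabetic arrays, against 9.36, 10.11, 7.87 and 8.16 on control arrays. Diabetic array 7 lay above control arrays 3 and 4, and the difference of -1.50 ± 0.52 did not pass (adjusted p = 0.196). At 2 months it was 0.06 ± 0.48. A further Thrsp probe set also fell at 8 months (-1.38 ± 0.34, adjusted p = 0.00551), and a dim one gave -0.04 ± 0.10.

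**Figure D2:**
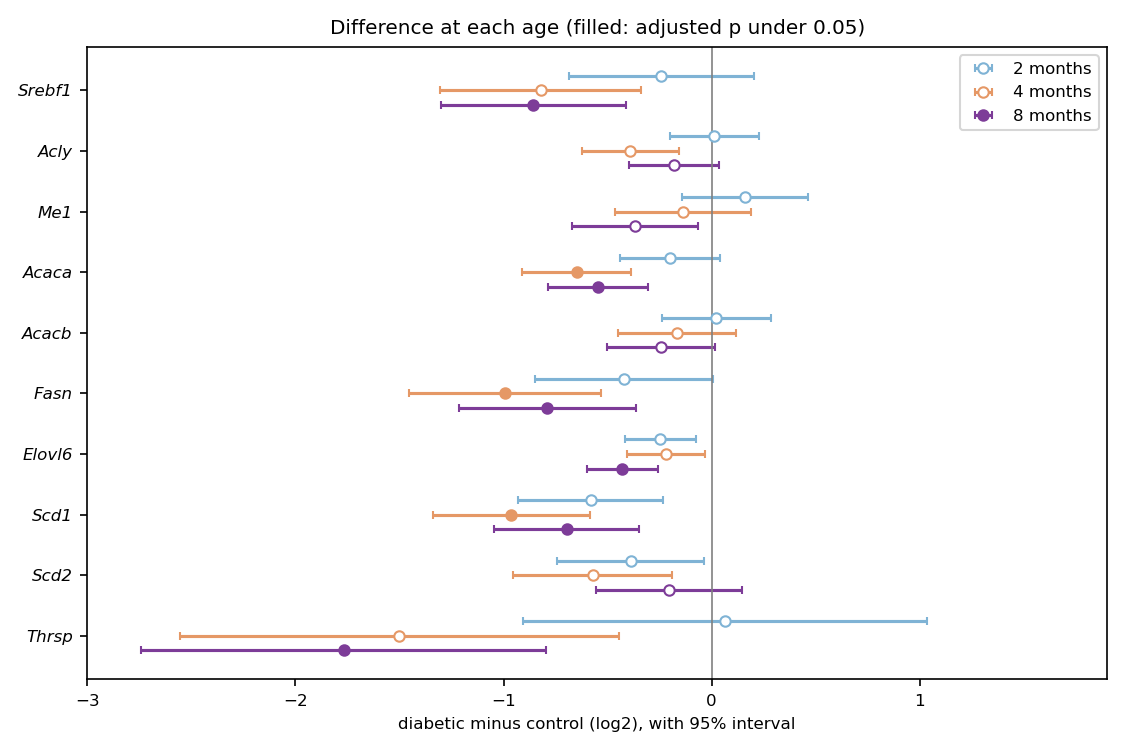
Difference in log2 signal, diabetic minus control (horizontal axis), for the 10 genes at 2, 4 and 8 months, with 95% intervals from the limma fit. Filled points passed at an adjusted p under 0.05: 3 genes at 4 months and 6 at 8 months.

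The difference between ages was tested for each gene with an F test over the 3 diabetic-minus-control values. For 0 of the 10 genes did it pass, against 2.5% of all genes, and 3 had an unadjusted p under 0.05. The smallest adjusted p values were 0.235 for Thrsp, 0.282 for Acaca and 0.333 for Acly. The larger number of genes that fell at 8 months is therefore not shown to be an age difference in any of them. Thrsp passed this test when control array 1 of 8 months was left out (adjusted p = 0.0291).

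Brown fat markers were also lower in part on diabetic arrays. Of the 9 markers listed, 9 were on the array and 5 were bright enough to be tested: Ucp1, Cidea, Cox8b, Cox7a1 and Ppargc1a, of which the last 2 are also active in other oxidative tissues. At 2, 4 and 8 months 0, 1 and 4 of the 5 fell in limma, against 1.78%, 0.554% and 6.95% of all genes. At an unadjusted p under 0.05, 1, 3 and 4 of the 5 were lower. The summed signal of the 5 ran from 1322 to 1803 on the diabetic arrays of 8 months, against 1825 to 2671 on the control arrays. At 4 months it ran from 1533 to 1805, against 1756 to 2712. None of the 5 was at 0 on any array, since each probe set has a positive signal.

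Ucp1, the uncoupling protein that defines brown fat, ran from 4.69 to 5.21 on diabetic arrays at 8 months, against 5.22, 7.99, 6.33, 7.97, 7.65 and 7.54 on control arrays. Control array 1, the lowest for Thrsp, was also the lowest control array for Ucp1. Ucp1 fell by 2.20 ± 0.46 (adjusted p = 0.000867). These diabetic values, and that of control array 1, all lay under the 5.27 log2 threshold, which was applied to the mean over all arrays. The size of this fall is therefore uncertain. At 4 months Ucp1 ran from 4.14 to 6.37 on diabetic arrays, against 9.21, 9.03, 5.39 and 6.52 on control arrays. It fell by 2.28 ± 0.50 (adjusted p = 0.0145). Control arrays 1 and 2 had the highest Ucp1, Fasn and Thrsp of that age. At 2 months Ucp1 did not pass (-0.16 ± 0.46, adjusted p = 0.922). Cidea, a lipid droplet protein, fell by 2.22 ± 0.52 at 8 months. On diabetic arrays of that age it ran from 4.66 to 5.23, also under the threshold, apart from array 5 at 6.33. It was 4.72 on control array 1 and 7.21 to 8.57 on the other control arrays.

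Of the 12 white fat markers listed, 10 were on the array and 7 were tested. By the limma test 0 fell at any age, also at an unadjusted p under 0.05, and 1 rose at 8 months, the droplet protein Plin4 (0.74 ± 0.23, adjusted p = 0.0217). At that age 16.8% of all genes changed in either direction. Adipoq, the adipokine adiponectin, ran from 8.17 to 9.47 on diabetic arrays of 8 months, against 4.27 to 9.75 on control arrays. Of the 4 adrenal markers tested 0 passed in limma at any age, also at an unadjusted p under 0.05.

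The differences were refitted with the mean of the 5 brown fat markers as a covariate, centred within each age, a setting chosen after these values were seen. At 8 months 3 genes instead of 6 fell, while over all 13004 genes 917 instead of 2187 changed in either direction. Srebf1 gave -1.15 ± 0.30 (adjusted p = 0.0166), Scd1 -0.84 ± 0.24 (adjusted p = 0.0293) and Elovl6 -0.41 ± 0.12 (adjusted p = 0.034). Fasn moved to -0.16 ± 0.25 (adjusted p = 0.799), Acaca to -0.30 ± 0.16 (adjusted p = 0.288) and Thrsp to 0.14 ± 0.49 (adjusted p = 0.917). At 4 months Scd1 alone fell, by 1.07 ± 0.23 (adjusted p = 0.0201), while Fasn gave -0.52 ± 0.24, Acaca -0.46 ± 0.15 and Thrsp -0.05 ± 0.46. Over all genes 93 instead of 126 changed at 4 months. With Ucp1 alone as the covariate the genes that fell at 8 months were again Srebf1, Scd1 and Elovl6, and at 4 months Scd1 and Srebf1 fell. With Ucp1, 1485 of all genes changed at 8 months and 108 at 4 months. The covariate itself differs between the groups, so marker level and diabetes are partly confounded in this fit. It also includes Ucp1 and Cidea, which lay under the 5.27 log2 threshold on most diabetic arrays of 8 months. The part of such dim values in this fit was not tested.

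**Figure D3:**
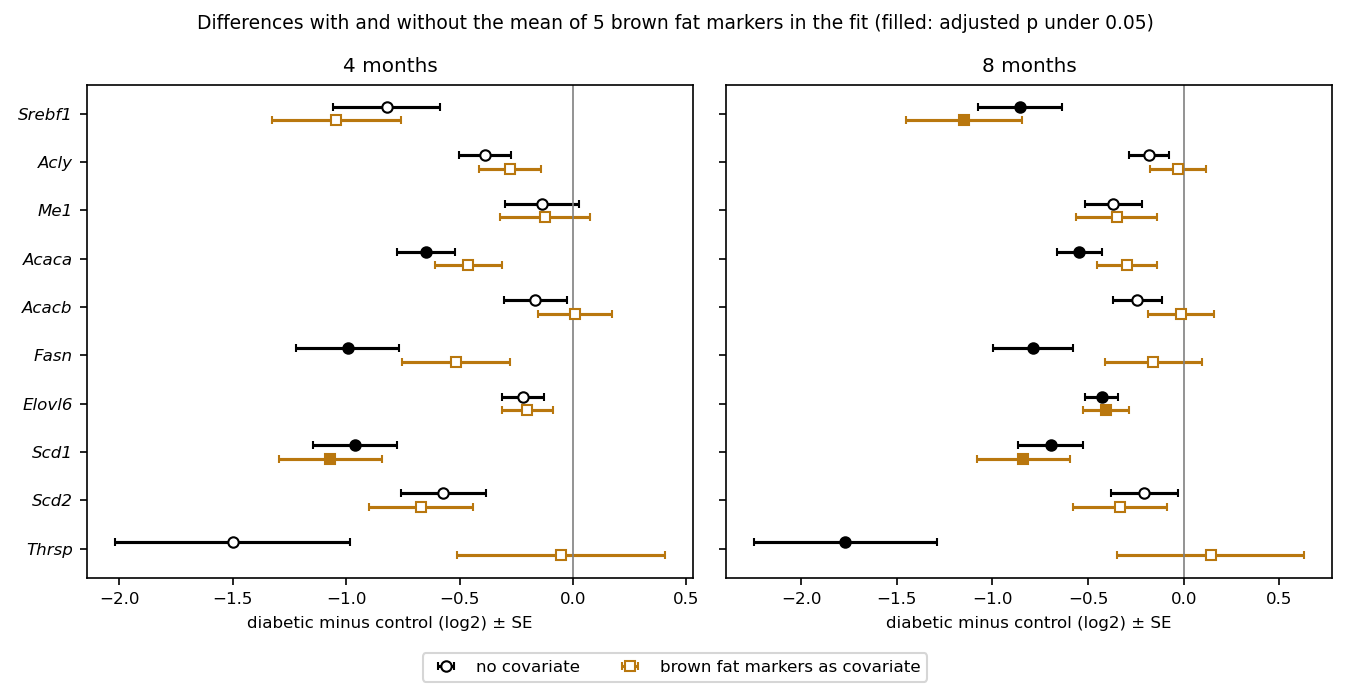
Diabetic-minus-control log2 difference ± SE (horizontal axis) of the 10 genes at 4 months (left) and 8 months (right), without a covariate (circles) and with the mean of 5 brown fat markers as a covariate (squares). Filled symbols passed at an adjusted p under 0.05. Thrsp at 8 months moves to 0.14 and Fasn to -0.16, while Srebf1 and Scd1 keep negative differences that passed.

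Within the groups, that is after the mean of each group is removed, 1 of the 10 genes followed the brown fat markers. Thrsp had a slope of 1.68 ± 0.30 log2 per log2 (adjusted p = 0.0115), where 0.0384% of all genes passed. Control array 1 of 8 months was the lowest of its group in Thrsp (5.90) and in the marker mean (7.27). Diabetic array 1 of 2 months was the highest of its own in both (7.86 and 7.40). This slope was not refitted without these arrays. The slope of Fasn was 0.55 ± 0.16 and missed the threshold (adjusted p = 0.667), and those of Scd1, -0.12 ± 0.15, and Srebf1, -0.26 ± 0.19, had a negative sign. Thrsp also followed the white fat markers, with a slope of 1.13 ± 0.16 (adjusted p = 0.000136), where 0.0769% of all genes passed. The same arrays were the lowest (7.52) and the highest (9.85) of their groups in the white fat mean, and this slope was not refitted without them either. With the white fat markers as a covariate, Scd1, Fasn, Acaca and Thrsp fell at 4 months, Thrsp with -1.55 ± 0.34 (adjusted p = 0.013). The same 6 genes as without it fell at 8 months. Over all 13004 genes 134 and 2048 changed at these ages.

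**Figure D4:**
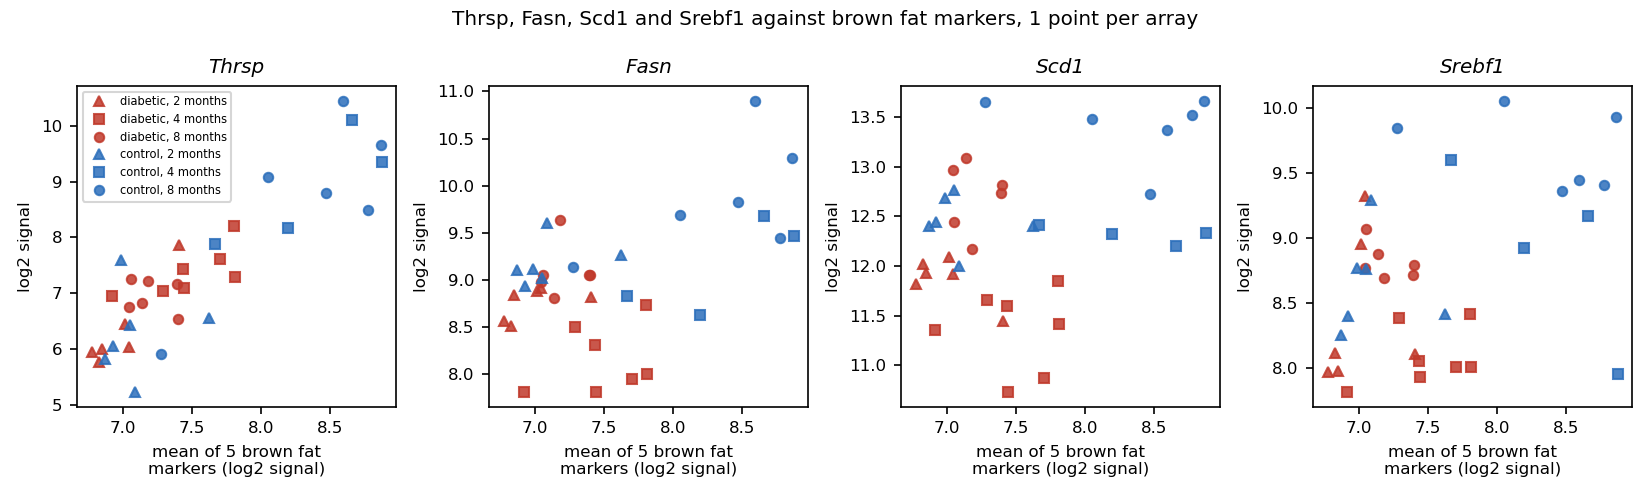
Log2 signal of Thrsp, Fasn, Scd1 and Srebf1 (vertical axes) against the mean log2 signal of 5 brown fat markers (horizontal axes), with 1 point per array, diabetic in red and control in blue, and the marker shape giving the age. The control arrays of 4 and 8 months reach marker means of 8.87 and 8.86, and the highest Thrsp and Fasn values lie among them.

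Srebf1 and Scd2 varied together between arrays of the same group. After the group means were removed, their Pearson r over 35 arrays was 0.84 and Spearman's rho was 0.78 (permutation p = 1e-05 each, the smallest that 100000 draws can give, and 9e-05 adjusted over 9 relations). Without the 2 arrays farthest out in Srebf1, r was 0.77. Within the ages of 2, 4 and 8 months r was 0.97, 0.86 and 0.42. With Fasn r was 0.10, with Scd1 0.21 and with Acaca 0.27, and none of these passed (adjusted permutation p = 0.625, 0.203 and 0.203). By Spearman's rho the relation with Scd1 did pass (0.40, adjusted permutation p = 0.0256). Those with Fasn (0.20, adjusted permutation p = 0.373) and Acaca (0.32, adjusted permutation p = 0.11) did not. The relations with Acly (-0.53, adjusted p = 0.0105), Elovl6 (-0.49, adjusted p = 0.00858) and Me1 (-0.44, adjusted p = 0.00858) were negative in this permutation test. Within the ages of 2, 4 and 8 months r was -0.73, -0.14 and -0.50 for Acly, -0.83, -0.21 and -0.12 for Elovl6, and -0.63, 0.14 and -0.38 for Me1, each farthest from 0 at 2 months. Control array 6 of 2 months had the highest Srebf1 of its group (9.29) and the lowest Acly (10.46), Elovl6 (10.42) and Me1 (10.37). The permutation treats the arrays of a group as exchangeable and was not repeated without that array.

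The slopes of this pair on clock phase were close in size, and only that of Scd2 passed. Scd2 rose with Arntl minus Dbp, a measure of clock phase, with a slope of 0.12 ± 0.03 (adjusted p = 0.015), where 2.77% of all genes passed. The slope of Srebf1, 0.10 ± 0.04, did not pass (adjusted p = 0.101), and the difference between these slopes was not tested. The 2-month arrays 5 and 6 of the diabetic group, high in Srebf1 and Scd2, had Arntl at 7.88 and 8.28. They are also among the arrays that lay apart along the leading principal component of that age. The part of clock phase in the correlation was not tested.

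The other enzymes of lipid synthesis mostly stayed below the threshold. Of 23 tested, 1 rose and 2 fell at 2 months, 1 fell at 4 months, and 1 rose and 5 fell at 8 months, with medians of -0.03, -0.06 and -0.12. Of all genes, 2.54%, 0.969% and 16.8% changed in either direction at these ages. Hacd2, a dehydratase of the elongation cycle, fell at all 3 ages, by 0.41 ± 0.09, 0.44 ± 0.10 and 0.42 ± 0.09 (adjusted p = 0.00743, 0.0126 and 0.00086). At 8 months the fatty acid desaturases Fads1 and Fads2 fell by 0.38 ± 0.09 and 0.60 ± 0.17, and the acyl-CoA synthetase Acsl3 by 0.51 ± 0.10. Another synthetase, Acsl5, rose by 0.47 ± 0.09 at that age, and the mitochondrial citrate carrier Slc25a1 rose by 0.31 ± 0.07 at 2 months.

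Of 19 regulators tested, 0 passed in limma at 2 and 4 months and 3 fell at 8 months. Of all genes, 2.54%, 0.969% and 16.8% changed in either direction at these ages, and 6.95% fell at 8 months. Without adjustment 3 regulators had a p under 0.05 at 2 months and 1 at 4 months. Srebf2, the regulator of sterol synthesis, fell by 0.36 ± 0.08 (adjusted p = 0.00106), Insig1, which retains SREBPs in the endoplasmic reticulum, by 0.53 ± 0.18 (adjusted p = 0.0434), and the coactivator Ppargc1b by 0.34 ± 0.12 (adjusted p = 0.0403). Mlxipl, which encodes the glucose-responsive factor ChREBP, gave -0.08 ± 0.11, 0.07 ± 0.12 and -0.11 ± 0.11 at the 3 ages. Txnip, a glucose-induced gene, gave 0.28 ± 0.26, 0.30 ± 0.28 and 0.36 ± 0.26, and neither gene passed at any age.

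NADPH-supplying enzymes other than Me1 moved in both directions at 8 months, where of 7 tested Pgd, of the pentose phosphate pathway, rose by 0.43 ± 0.13 and the mitochondrial malic enzyme Me3 fell by 0.45 ± 0.09. Of 13 sterol synthesis genes, Sqle rose by 0.48 ± 0.16 and Cyp51 fell by 0.48 ± 0.12 at that age. Among 13 insulin and feeding genes, the lipoprotein lipase Lpl fell at every age, by 0.96 ± 0.15, 0.86 ± 0.16 and 1.01 ± 0.15. At 8 months the insulin receptor substrate Irs1 fell by 0.62 ± 0.08 and Angptl4, an inhibitor of lipoprotein lipase, rose by 2.05 ± 0.53. The share of all genes that changed in either direction was 2.54%, 0.969% and 16.8% at 2, 4 and 8 months.

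The genes whose pattern over the 35 arrays was most like that of Scd1, Fasn and Acaca were taken by Pearson's r after the mean of each age was removed, so that the groups' difference stays in. For Scd1 they were Lypd2 (r = 0.80), Dusp15 (0.79), Mme (0.79), Hacd2 (0.78) and Cbr2 (0.77). For Fasn they were Pnpla3 (0.76), Ucp1 (0.76), Mrap (0.75), Prom2 (0.73) and Lpl (0.73). For Acaca they were Prkca (0.82), Pnpla3 (0.81), Kcnj10 (0.77), Prom2 (0.75) and Mpv17l (0.74). With the mean of each group removed instead, Mrap came first for both Fasn (0.75) and Acaca (0.73), and Prnp for Scd1 (0.67).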

How the data were processed

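Total RNA of whole kidney, 5 ug per array, was labelled and hybridised to Affymetrix arrays, per the labels' protocols. The authors deposited a log2 value per probe set and array, and the values lie in the range of log2 signals. How the authors corrected background, summarized and normalized is not given in the sources used here. Whether fat was trimmed from the kidneys is likewise not stated.

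Of 45101 probe sets, 34945 name 1 gene. A gene was its brightest such probe set, and those under the 40th percentile of all probe set means (5.27 log2) were left out, which left 13004. limma 3.58.1 on R 4.3.3 fitted a mean per group over 35 arrays (29 residual degrees of freedom), with contrasts of diabetic minus control at each age and an F test between ages, adjusted by Benjamini and Hochberg, and it was tested on simulated data. Python 3.11.15 served for correlations and promoters. Errors of group means are SDs and errors of differences are standard errors. Slopes were fitted in limma with the group means and a covariate.

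The 10 genes, the other lists and the tests were chosen with earlier results of these data known, including the calls of Scd1, Fasn and Acaca at 4 months, so those calls are not independent support. Named genes are all members, at most 6 of each other list by smallest adjusted p among those that passed, set regulators, and the 5 genes most like Scd1, Fasn and Acaca. Arrays have no read depth, so their number sets the precision, and over all genes the typical SD of a group (median) was 0.10 to 0.18.

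Same-numbered diabetic and control arrays were checked for pairing by the correlation of their deviations from group means. The r was 0.25 to 0.44 in 6 pairs at 2 months, 0.05 to 0.18 in 4 at 4 months and -0.14 to 0.23 in 6 at 8 months. The reported fit pairs no arrays. The replicate block, an alternative, matches same-numbered arrays at every age. Alternatives were other normalizations, filters, probe set summaries, the replicate block, covariates for clock, fat and RNA quality, and leaving out arrays.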

Additional observations from a re-analysis of the deposited data

Results flagged for a closer look

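Of the 60 groups of a gene at an age, 6 held an array that stood far from its neighbours relative to the range of its group. Chance gives such an array in about 1 of 20 groups. Elovl6 was lowest in diabetic array 3 of 8 months, at 9.99, with the next array at 10.30. Fasn was highest in diabetic array 5 of 8 months, at 9.63, with the next at 9.05. Thrsp was highest in diabetic array 1 of 2 months, at 7.86, with the next at 6.45. Me1 was lowest in control array 6 of 2 months, at 10.37, with the next at 11.52; this array also had the beta-actin 3′/5′ ratio of 2.56. Scd1 was lowest in control array 5 of 8 months, at 12.72, with the next at 13.37, and Scd2 in control array 1 of 4 months, at 9.14, with the next at 9.91.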

How the results depend on the processing

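With 35 arrays in 6 groups, differences of single genes near the threshold move with the setting. The number of the 10 genes that fell at 2 months, 0 as reported, was 2 with the replicate block, 2 without arrays 5 and 6, and 1 with the clock, RNA quality or Ucp1 covariate or a batch term for arrays 5 and 6; leaving out an array gave 0 to 2. At 4 months, 3 as reported, it was 5 in a fit of that age alone, 1 without control arrays 3 and 4, and 1 with the brown fat covariate (both fat covariates of this kind, brown fat and Ucp1, were chosen after seeing the data), and leaving out an array gave 2 to 4. Of all 13004 genes, 126 changed at that age as reported, 358 in the fit of that age alone and 93 with the brown fat covariate. At 8 months, 6 as reported, it was 3 with the brown fat or the Ucp1 covariate and 6 to 7 otherwise. Of all genes, 2187 changed at that age as reported, 917 with the brown fat and 1485 with the Ucp1 covariate. The replicate block, which matches arrays by number, kept 3 at 4 months, where Fasn gave way to Srebf1 (adjusted p = 0.0758 and 0.0498), and 6 at 8 months. Without 1 array the median difference ran from -0.24 to -0.14 at 2 months, -0.71 to -0.52 at 4 months and -0.51 to -0.42 at 8 months; with the brown fat or Ucp1 covariate it was -0.37 or -0.35 at 4 months. The number of genes whose difference varied between ages, 0 as reported, was 1 with the white fat covariate and 0 to 1 without 1 array. Acaca at 4 months missed the threshold with the mean of its probe sets (adjusted p = 0.0588). Without control arrays 3 and 4, where all genes gave 5 calls instead of 126, Acaca was -0.80 (0.0635) and Scd1 -0.91 (0.215), against -0.65 and -0.96 with them. Fasn at 4 months missed the threshold with the clock covariate (0.0848), and Me1 at 8 months passed under both quantile normalizations (0.0278 and 0.0487).

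Signs turned 26 times, each in a value that did not pass under that setting, 23 of them at 2 months. With the mean of all probe sets, 2-month values were 0.0025 for Acaca, -0.015 for Acly and -0.0020 for Thrsp. With the white fat covariate, Acly was -0.0073 and Thrsp -0.126; with the RNA quality covariate -0.042 and -0.076; without arrays 5 and 6 -0.0083 and -0.077. Acacb was -0.029 with the clock covariate at 2 months, and at 4 months 0.0080 with the brown fat and 0.053 with the Ucp1 covariate. Thrsp at 8 months was 0.14 with the brown fat covariate. Without 1 array the 2-month values ran from -0.023 to 0.135 for Acacb, -0.10 to 0.069 for Acly, -0.064 to 0.26 for Me1 and -0.24 to 0.33 for Thrsp. The cause of these changes was not tested.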
